A study of Homo sapiens with 18 samples.

Results

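The genes described here are 58 genes of mitosis, the kinetochore and the spindle, of 19775 genes named on the array. They were taken from a list by function in 10 roles, from cyclins and mitotic kinases to condensin and cytokinesis, and 1 probe set, the brightest on average over all 18 arrays, stands for each gene. All 58 were among the 14042 genes bright enough to be tested. RNA came from SKMEL5, WM2664 and A375, 3 established human melanoma lines known to carry BRAF mutations. Each line was treated with A-485, a small molecule that blocks the catalytic acetyltransferase domain of the coactivators p300 and CBP, or with its solvent DMSO, and was collected after 6 h or 24 h. The groups were A-485 at 6 h and A-485 at 24 h, with 1 array per line, and DMSO at 6 h and DMSO at 24 h, with 2 arrays per line, which gave 12 groups. All A-485 samples carry a labelled dose of 3 mM, a unit that could not be checked. The series describes 2 of the lines as sensitive and 1 as resistant without naming them.

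Cells pass through mitosis by switching on cyclin-dependent kinase 1 with its B cyclins, condensing their chromosomes, attaching each centromere through a kinetochore to spindle microtubules, and splitting after the anaphase-promoting complex has marked securin and cyclin B for destruction. Many genes for these steps are transcribed together late in the cell cycle, under the MuvB complex, which represses them with DREAM partners in arrested cells and activates them with B-MYB and FOXM1 in dividing cells. Their transcript level in a culture is therefore widely used as a readout of the share of dividing cells. In bulk RNA such as this, fewer cells with a transcript and less of it per cell cannot be told apart.

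All values below are intensities scaled between arrays and set to a floor of 32, differences are on the log2 scale as A-485 minus DMSO with the standard error, and calls were made where the adjusted p was below 0.05. Each A-485 group is a single array with no replicate check of its own. The lone arrays were assumed to vary like the 6 pairs of DMSO arrays, which correlated at 0.990 to 0.994 over all genes tested. Whether paired arrays hold separate cultures is not labelled, so the spread behind every p-value is that between these arrays and may be technical. Melanocyte markers checked the lines: the summed level of 7 such genes was 37595 to 39870 with A-485 and 47111 to 48741 with DMSO in SKMEL5, and 18285 to 21960 with A-485 and 32308 to 34746 with DMSO in WM2664. In A375 the sum was 488 to 645 with A-485 and 1324 to 1943 with DMSO, with MLANA, TYR and TYRP1 at the floor on 5 of 6 arrays each and S100B on 4 of 6, while SOX10 (112.5 to 913), MITF (159 to 468) and PMEL (38.9 to 223) were above it on all 6. The 4 leukocyte markers PTPRC, CD3E, CD14 and LYZ were at the floor on every SKMEL5 and WM2664 array, and in A375 LYZ (54.7 to 92.4) was above it on all arrays and CD3E (33.6) on 1. Of 7 fibroblast markers, LUM was bright in SKMEL5 (median 4166), COL1A2 in WM2664 (2873) and COL1A1 in A375 (1301), and COL3A1 and PDGFRA were at the floor on every array. Their sums were 4058 to 4317 with A-485 and 4659 to 5411 with DMSO in SKMEL5, 3614 to 6194 with A-485 and 3750 to 3879 with DMSO in WM2664, and 666 to 1037 with A-485 and 1658 to 2757 with DMSO in A375. Of 6 epithelial markers, KRT18 was bright in A375 (median 5514) and CDH1 was present in SKMEL5 (648), and KRT5 and EPCAM were at the floor throughout. Those sums were 390 to 498 with A-485 and 808 to 970 with DMSO in SKMEL5, 407 to 460 with A-485 and lower on all 4 DMSO arrays, from 311, in WM2664, and 4970 to 5148 with A-485 and 6063 to 7782 with DMSO in A375. The part of these markers in the results was not tested. On 3 DMSO arrays, genes bright in another line and dim in their own read higher than on the other arrays of their line, by a median of 1.74% of the other line's level (WM2664 at 6 h, replicate 1), 0.753% (WM2664 at 24 h, replicate 2) and 0.752% (A375 at 6 h, replicate 1). Several of the counts below, but not all, are also given without these 3 arrays. They are called below the arrays with transcripts of another line. The name describes these readings only, and their source was not tested. Without scaling, the median of all genes tested lay 0.28 above 0 in SKMEL5 at 6 h, 0.39 in WM2664 at 6 h and 0.18 in WM2664 at 24 h, so each difference below is relative to that shift.

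After 24 h of A-485, nearly the whole group was lower in SKMEL5 and WM2664 and not in A375. In SKMEL5, 55 of the 58 genes fell and all 58 had a negative difference, with a median of -1.84, or 28.0% of the DMSO level, where 15.2% of all genes tested fell and 20.2% rose. In WM2664, 46 of 58 fell, with a median of -0.54, or 68.9% of the DMSO level, where 14.6% of all genes fell and 17.7% rose. In A375, 9 genes rose and 3 fell, with a median of 0.08, where 9.08% of all genes rose and 8.4% fell. The A-485 array lay below both DMSO arrays for 58 of 58 genes in SKMEL5, where 31.0% of all genes did, for 57 of 58 in WM2664, where 31.5% of all genes did, and for 14 of 58 in A375, where 29.9% of all genes did. It lay above both for 0 genes in SKMEL5, where 41.2% of all genes did, for 0 in WM2664, where 40.4% did, and for 35 in A375, where 39.6% did. Of the 58 genes, 51 were at or below 50% of their DMSO level in SKMEL5 (5.40% of all genes), 5 in WM2664 (4.77%) and 0 in A375 (3.24%), and in SKMEL5 24 were at or below 25% (1.13%). The calls of SKMEL5 and WM2664 shared 45 genes, of the 55 in SKMEL5 and the 46 in WM2664, where 8.37% of all genes fell in both. Of all genes tested, 2134 fell in SKMEL5, 2051 in WM2664 and 1175 in both.

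**Figure D1:**
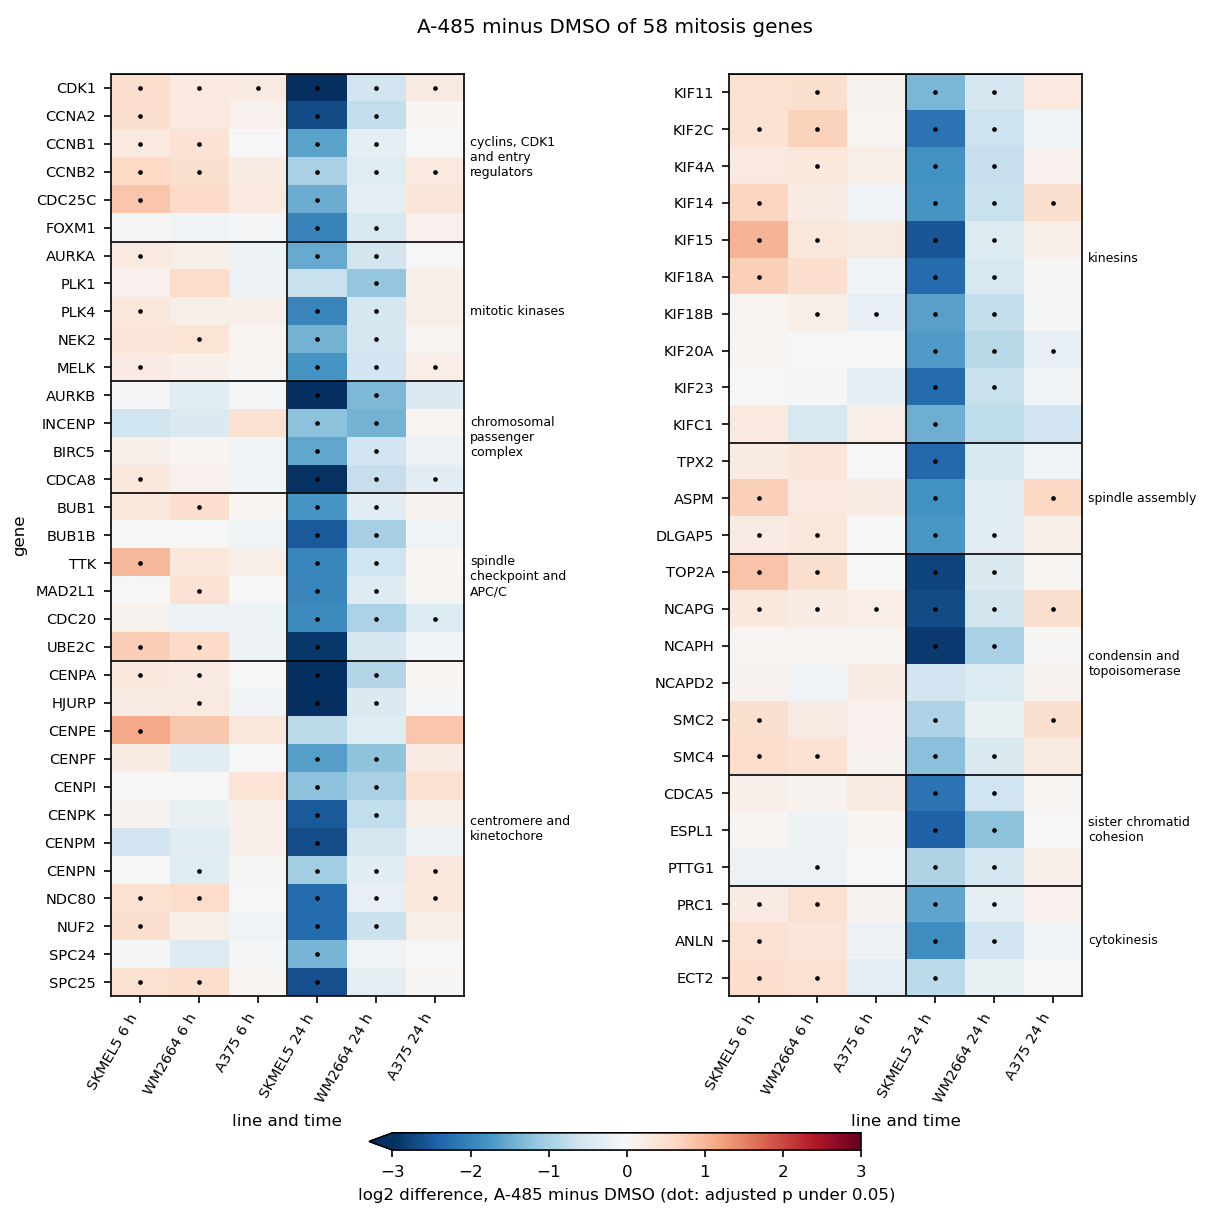
Log2 difference of A-485 minus DMSO for the 58 genes, in rows by role, in 3 lines at 6 h and 24 h, with a dot where the adjusted p was under 0.05. The SKMEL5 column at 24 h is blue throughout, the WM2664 column at 24 h is a paler blue with 46 dots, and the A375 columns hold both signs.

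The SKMEL5 count held between 54 and 55 when any 1 array was left out, and was 53 without the 3 arrays with transcripts of another line. The WM2664 count was 34 without those arrays and 26 when the WM2664 arrays were fitted alone. Without any scaling between arrays, 49 of the 58 genes still had a negative difference in WM2664 but 1 was called. There the members' median was -0.23 and that of the 8133 brighter genes was 0.35, so the members lay 0.58 below them, and with scaling they lay 0.60 below. The A375 count of 12 fell to 5 without DMSO replicate 1 of 24 h and to 7 without replicate 2.

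**Figure D2:**
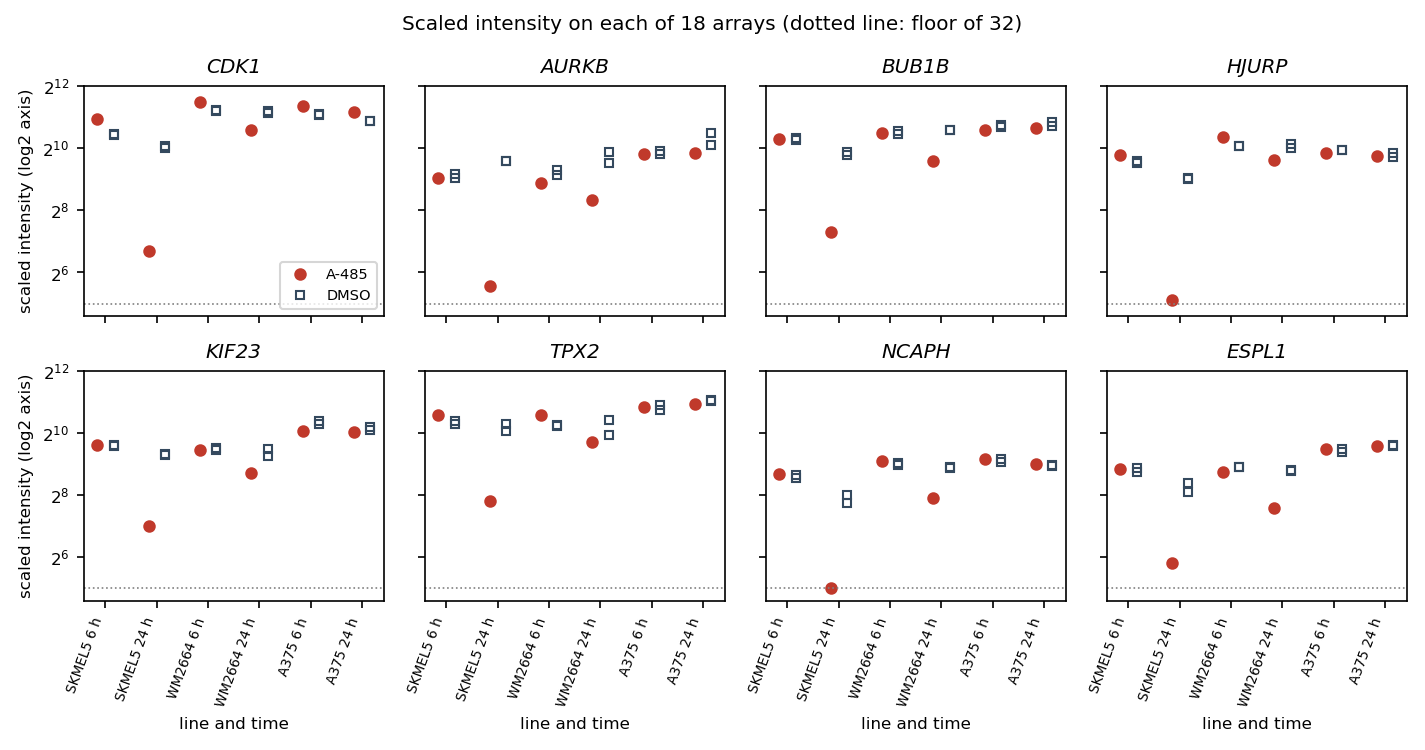
Scaled intensity of 8 of the genes on each of the 18 arrays, on a log2 axis, with A-485 as filled circles to the left of DMSO as open squares for each line and time. The SKMEL5 A-485 array at 24 h is the lowest point in every panel, with NCAPH at the floor of 32.

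The promoters of the genes were searched for elements known from genes of the late cell cycle. Of the genes followed array by array, the 4 with the largest mean difference over the 6 comparisons among those with a CHR match are shown, so all were chosen to hold one, and AURKB, with a larger difference than any of them and no CHR match, is not. The CHR, or cell cycle genes homology region, is the element TTTGAA or TTCGAA through which MuvB complexes contact DNA, and the CCAAT box is bound by the activator NF-Y. Both were searched on both strands in windows of 300 bases, from 250 before to 50 after the start of the gene, in the RefSeq promoters of build GRCh38.p14. Windows were matched by symbol for 51 of the 58 genes, all but BIRC5, TTK, AURKA, CENPM, FOXM1, TPX2 and UBE2C. A CHR match was present in 38 of these 51 genes, or 74.5%, in 16.1% of the 11305 tested genes with a window and in 19.5% of all 27305 genes with one. In 34 members a match began within 100 bases before the start or after it, and the share of all genes with such a match was not counted. A CCAAT match was present in 38 of 51 genes, in 43.2% of tested genes and in 39.7% of all genes. Both lay in 1 window in 28 of 51 genes, or 54.9%, in 6.74% of tested genes and in 7.85% of all genes. The E2F element GCGGGAA or GCGCGAA was present in 10 of 51 genes, or 19.6%, close to the 16% of tested genes, and in 10.2% of all genes, and these motifs can overlap one another. The sequences are written in the direction of transcription, with matches to CHR and CCAAT in capitals on either strand, so that CCAAT also appears as ATTGG.
HJURP, chr2:233854486-233854785, minus strand: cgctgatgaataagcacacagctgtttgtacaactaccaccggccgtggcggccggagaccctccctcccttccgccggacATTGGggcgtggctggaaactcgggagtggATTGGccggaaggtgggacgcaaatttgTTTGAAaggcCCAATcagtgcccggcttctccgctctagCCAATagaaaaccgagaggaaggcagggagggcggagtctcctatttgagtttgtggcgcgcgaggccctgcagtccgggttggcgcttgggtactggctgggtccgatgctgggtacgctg
BUB1B, chr15:40160819-40161118, plus strand: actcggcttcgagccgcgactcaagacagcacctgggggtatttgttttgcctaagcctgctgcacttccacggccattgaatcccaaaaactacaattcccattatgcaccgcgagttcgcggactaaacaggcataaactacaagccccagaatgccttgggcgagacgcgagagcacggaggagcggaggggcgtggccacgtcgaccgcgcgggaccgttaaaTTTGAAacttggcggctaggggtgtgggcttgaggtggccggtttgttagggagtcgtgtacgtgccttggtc
ESPL1, chr12:53268049-53268348, plus strand: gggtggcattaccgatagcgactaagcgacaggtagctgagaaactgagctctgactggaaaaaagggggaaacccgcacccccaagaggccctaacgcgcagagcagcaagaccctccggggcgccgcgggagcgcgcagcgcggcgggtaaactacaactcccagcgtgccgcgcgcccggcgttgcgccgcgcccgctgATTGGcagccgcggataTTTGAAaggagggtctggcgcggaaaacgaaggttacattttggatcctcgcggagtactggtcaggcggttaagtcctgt
CDCA8, chr1:37692266-37692565, plus strand: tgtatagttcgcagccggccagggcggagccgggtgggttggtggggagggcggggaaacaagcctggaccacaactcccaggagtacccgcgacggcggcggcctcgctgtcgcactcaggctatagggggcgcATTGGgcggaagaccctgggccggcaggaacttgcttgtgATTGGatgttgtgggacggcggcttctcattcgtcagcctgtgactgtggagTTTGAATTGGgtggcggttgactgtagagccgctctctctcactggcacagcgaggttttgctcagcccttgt
HJURP has 1 CHR match and 4 CCAAT matches, CDCA8 has 1 and 3 with the CHR overlapping a CCAAT box, ESPL1 has 1 of each, and BUB1B has 1 CHR match and 0 CCAAT matches. The 38 genes with a CHR match had a median difference in SKMEL5 at 24 h of -1.84, and the 13 with a window and no match had -1.70. The same medians in WM2664 were -0.51 and -0.62, and these gaps were not tested and are small beside the range of the 58 differences, from -4.02 to -0.58 in SKMEL5 and from -1.43 to -0.11 in WM2664.

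Among the 6 cyclins, CDK1 and entry regulators, all 6 fell in SKMEL5 at 24 h and 5 in WM2664, while 2 rose in A375. CDK1, the kinase that starts mitosis, read 104 with A-485 against 1022 and 1084 with DMSO in SKMEL5, 1536 with A-485 against 2358 and 2237 with DMSO in WM2664, and 2269 with A-485 against 1888 and 1879 with DMSO in A375. The A-485 array lay below the DMSO pair in SKMEL5 and WM2664 and above it in A375. The differences were -3.34 ± 0.05 (adjusted p = 8.37e-08), -0.58 ± 0.05 (0.000241) and 0.27 ± 0.05 (0.015), in the same order of lines. CCNA2, the cyclin of S phase and early mitosis, read 87.5 with A-485 against 588 and 543 with DMSO in SKMEL5, 536 with A-485 against 915 and 865 with DMSO in WM2664, and 1692 with A-485 against 1800.2 and 1452 with DMSO in A375. It fell by 6.45-fold in SKMEL5 and 1.66-fold in WM2664 (limma, adjusted p = 4.14e-06 and 0.00257), and in A375 the A-485 array lay between the DMSO arrays. FOXM1, a transcription factor that activates late cell cycle genes and is itself one, read 94.8 with A-485 against 401 and 359.5 with DMSO in SKMEL5, 378 with A-485 against 534 and 510.1 with DMSO in WM2664, and 1021 with A-485 against 947 and 911 with DMSO in A375. It fell in SKMEL5 and WM2664 (differences -2.0 ± 0.13 and -0.46 ± 0.13, adjusted p = 3.18e-05 and 0.0305), and its difference in A375 was 0.14 ± 0.13 (adjusted p = 0.614). The B cyclins CCNB1 and CCNB2, partners of CDK1, were also called in both lines: CCNB1 at 32.7% of DMSO in SKMEL5 and 83.3% in WM2664, where its difference without scaling was 0.01 beside a median of all genes of 0.18, and CCNB2 at 51.3% and 77.8%. CDC25C, the phosphatase that activates CDK1, fell in SKMEL5 (-1.49 ± 0.19) and had a difference of -0.27 ± 0.19 in WM2664 (limma, adjusted p = 0.37).

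Of the 5 genes of the mitotic kinase role, 4 fell in SKMEL5 at 24 h and all 5 in WM2664. The kinases CDK1, Aurora B, BUB1 and TTK are counted in other roles. AURKA, which matures centrosomes and builds the spindle, read 393 with A-485 against 1146 and 1098 with DMSO in SKMEL5, 949 with A-485 against 1329 and 1437 with DMSO in WM2664, and 2005 with A-485 against 2017 and 2049 with DMSO in A375. MELK, a kinase of dividing cells, read 365 with A-485 against 1247 and 1256 with DMSO in SKMEL5, 1713 with A-485 against 2495 and 2580.0 with DMSO in WM2664, and 2848 with A-485 against 2444 and 2537 with DMSO in A375. PLK4, the kinase that starts centriole duplication, read 63.5 with A-485 against 248 and 253 with DMSO in SKMEL5, 297 with A-485 against 436 and 413 with DMSO in WM2664, and 533 with A-485 against 481 and 458 with DMSO in A375. All of these had the A-485 array below the DMSO pair in SKMEL5 and WM2664, and their falls were 2.86-fold, 3.43-fold and 3.95-fold in SKMEL5 (adjusted p = 3.55e-06, 7.16e-07 and 4.87e-06), and 1.46-fold, 1.48-fold and 1.43-fold in WM2664 (limma, adjusted p = 0.000611, 0.000195 and 0.00362). In A375 MELK rose (0.19 ± 0.05, adjusted p = 0.0397). PLK1, the polo kinase that acts from mitotic entry to cytokinesis, was read by a dim probe set, at 32 with A-485 against 36.9 and 70.8 with DMSO in SKMEL5. The A-485 array was at the floor, so the SKMEL5 difference is only a bound, and it was not called (adjusted p = 0.183). In WM2664 PLK1 fell, with 37.9 with A-485 against 94.7 and 75.8 with DMSO in WM2664 (limma, adjusted p = 0.0376). NEK2, a kinase that separates centrosomes, fell to 37.6% of DMSO in SKMEL5 and to 70.2% in WM2664.

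The chromosomal passenger complex, which corrects wrong kinetochore attachments and later guides cytokinesis, fell in SKMEL5 and WM2664 at 24 h, with 4 of 4 genes called in each. AURKB, its kinase subunit, had the largest fall of the 58 genes in SKMEL5 and read 47.6 with A-485 against 772 and 771 with DMSO in SKMEL5, 326 with A-485 against 734 and 948 with DMSO in WM2664, and 923 with A-485 against 1426 and 1091 with DMSO in A375. The groups did not overlap in any line, but the A375 DMSO arrays lay apart. AURKB fell 16.2-fold in SKMEL5 (-4.02 ± 0.19, adjusted p = 6.77e-06) and 2.56-fold in WM2664 (-1.36 ± 0.19, adjusted p = 0.00151), and its difference in A375 was -0.43 ± 0.19 (adjusted p = 0.187). CDCA8, or borealin, which targets the complex to centromeres and has the promoter with overlapping elements shown above, read 47.5 with A-485 against 392.4 and 353 with DMSO in SKMEL5, 328 with A-485 against 548 and 513 with DMSO in WM2664, and 848 with A-485 against 1032 and 1098 with DMSO in A375. It was called lower in all 3 lines, 7.84-fold in SKMEL5, 1.61-fold in WM2664 and 1.26-fold in A375 (limma, adjusted p = 3.9e-07, 0.000479 and 0.0239). INCENP, the scaffold subunit, read 49.3 with A-485 against 91.2 and 146 with DMSO in SKMEL5, 39.1 with A-485 against 92.3 and 119 with DMSO in WM2664, and 195 with A-485 against 193 and 175 with DMSO in A375. INCENP thus lay below both DMSO arrays in SKMEL5 and WM2664, and above both DMSO arrays in A375 with A-485. INCENP fell in SKMEL5 and WM2664 (-1.23 ± 0.36 and -1.43 ± 0.36, adjusted p = 0.0332 and 0.0201), on a dim probe set. BIRC5, or survivin, fell to 33.9% of DMSO in SKMEL5 and to 67.4% in WM2664, and its difference in A375 was -0.18 ± 0.08 (adjusted p = 0.159).

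The 6 genes of the spindle checkpoint and its target, the anaphase-promoting complex, all fell in SKMEL5 at 24 h, and 5 fell in WM2664. BUB1B, or BUBR1, a subunit of the inhibitor that holds cells in metaphase, read 159.5 with A-485 against 946 and 888 with DMSO in SKMEL5, 773 with A-485 against 1546 and 1518 with DMSO in WM2664, and 1597 with A-485 against 1825 and 1676 with DMSO in A375. Its fall was 5.75-fold in SKMEL5 and 1.98-fold in WM2664 (limma, adjusted p = 6.79e-07 and 6.77e-05), and A375 had a difference of -0.13 ± 0.07 (adjusted p = 0.293). CDC20, the activator of the complex that the checkpoint restrains, read 156 with A-485 against 627 and 545 with DMSO in SKMEL5, 603 with A-485 against 1189 and 1137 with DMSO in WM2664, and 2953 with A-485 against 3932 and 3894 with DMSO in A375. It was below the DMSO pair in all 3 lines and called in each, at -1.91 ± 0.09, -0.95 ± 0.09 and -0.41 ± 0.09 (adjusted p = 6.03e-06, 0.000233 and 0.0197). UBE2C, the ubiquitin-conjugating enzyme of that complex, read 204 with A-485 against 1375 and 1695 with DMSO in SKMEL5, 1298 with A-485 against 1882 and 1783 with DMSO in WM2664, and 3004 with A-485 against 3475 and 2924 with DMSO in A375. It fell 7.47-fold in SKMEL5 (adjusted p = 1.56e-05), missed the threshold in WM2664 (-0.50 ± 0.16, adjusted p = 0.0535), and lay between the DMSO arrays in A375. The checkpoint kinases BUB1 and TTK and the checkpoint protein MAD2L1 fell to 29.1%, 25.8% and 25.5% of DMSO in SKMEL5, and to 80.3%, 66.1% and 75.9% in WM2664. Without scaling BUB1 had a difference of 0.00388 in WM2664, below the 0.18 of all genes.

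Of the 12 centromere and kinetochore genes, 11 fell in SKMEL5 at 24 h and 8 in WM2664, with medians of -2.31 and -0.49, and 2 rose in A375. HJURP, the chaperone that loads the centromeric histone, read 34.4 with A-485 against 517 and 523 with DMSO in SKMEL5, 792 with A-485 against 1129 and 1024 with DMSO in WM2664, and 857 with A-485 against 840.0 and 925 with DMSO in A375. The SKMEL5 array with A-485 was close to the floor, and the fall there was 15.1-fold (-3.92 ± 0.08, adjusted p = 1.6e-07). In WM2664 HJURP fell 1.36-fold (adjusted p = 0.00415), and in A375 the A-485 array lay between the DMSO arrays. CENPA, the histone H3 variant that HJURP loads, read 59.2 with A-485 against 479 and 512 with DMSO in SKMEL5, 354 with A-485 against 684 and 628 with DMSO in WM2664, and 579.8 with A-485 against 563 and 555 with DMSO in A375. It fell in SKMEL5 and WM2664 (-3.06 ± 0.06 and -0.89 ± 0.06, adjusted p = 2.22e-07 and 6.79e-05), while its difference in A375 was 0.05 ± 0.06 (adjusted p = 0.721). CENPM, a subunit of the inner kinetochore, read 53.2 with A-485 against 393 and 287 with DMSO in SKMEL5, 253 with A-485 against 404 and 331 with DMSO in WM2664, and 571 with A-485 against 634 and 663 with DMSO in A375. For CENPM, A-485 lay below both DMSO arrays in every line. CENPM fell in SKMEL5 (-2.66 ± 0.23, adjusted p = 0.000123) and missed the threshold in WM2664 (-0.53 ± 0.23, adjusted p = 0.125).

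Of the other kinetochore genes, the 4 subunits of the NDC80 complex, which binds microtubules, fell in SKMEL5: NDC80 to 20.0% of DMSO, NUF2 to 20.3%, SPC25 to 16.1%, and SPC24 at least 2.63-fold to the floor. In WM2664 the same transcripts stood at 83.9% (adjusted p = 0.0284), 64.1% (0.00169), 81.8% (0.146) and 92.8% (0.814), so that NDC80 and NUF2 passed the test and SPC25 and SPC24 did not. Without scaling the NDC80 difference in WM2664 was 0.06, also below the 0.18 of all genes. SPC24 was the single gene of the 58 in WM2664 whose A-485 array did not lie below both DMSO arrays. CENPF, a large corona protein of the kinetochore, fell in both lines, by differences of -1.65 ± 0.15 in SKMEL5 and -1.21 ± 0.15 in WM2664 (limma, adjusted p = 0.000169 and 0.000876). CENPI and CENPK, inner kinetochore subunits, fell in WM2664 to 50.7% and 60.3% of DMSO, and in SKMEL5 CENPK fell to 17.5% and CENPI at least 2.35-fold to the floor. CENPN, a reader of the centromeric nucleosome, fell in SKMEL5 and WM2664 and rose in A375 (-1.04 ± 0.05, -0.31 ± 0.05 and 0.31 ± 0.05, adjusted p = 4.89e-06, 0.00201 and 0.0041), and without scaling its WM2664 difference was 0.01, below the same median. Its other bright probe sets also had negative differences in SKMEL5 and WM2664, but gave 0.02 and -0.00015 in A375, so the rise there rests on the brightest. CENPE, the kinesin of the kinetochore, was called in no line at 24 h, with -0.79 ± 0.33, -0.35 ± 0.33 and 0.82 ± 0.33 (adjusted p = 0.107, 0.511 and 0.144).

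All 10 kinesins, the motors that move along or take apart microtubules, fell in SKMEL5 at 24 h and 9 of 10 in WM2664. KIF23, a motor of the central spindle needed for cytokinesis, read 129 with A-485 against 629 and 646 with DMSO in SKMEL5, 420.0 with A-485 against 612 and 716 with DMSO in WM2664, and 1053 with A-485 against 1179 and 1098 with DMSO in A375. With A-485 KIF23 lay below both DMSO arrays in every line. KIF23 fell 4.93-fold in SKMEL5 and 1.58-fold in WM2664 (limma, adjusted p = 3.62e-06 and 0.0018). When probe sets marked as shared between transcripts or genes were left out, another KIF23 probe set gave 0.07 in WM2664 (limma, adjusted p = 0.992). That probe set was dim, with a mean of 54.2 over all arrays against 811 for the brightest. KIF20A, which carries the passenger complex to the midzone, read 356 with A-485 against 1180.0 and 1130.4 with DMSO in SKMEL5, 928 with A-485 against 1636 and 1669.6 with DMSO in WM2664, and 2056 with A-485 against 2431 and 2450.0 with DMSO in A375. The A-485 array was below the DMSO pair in each line, and KIF20A was called in all 3, at -1.70 ± 0.05, -0.83 ± 0.05 and -0.25 ± 0.05 (adjusted p = 6.79e-07, 2.39e-05 and 0.0121). KIFC1, a minus-end motor that focuses spindle poles, was dim and read 32 with A-485 against 118 and 66.6 with DMSO in SKMEL5, 85.4 with A-485 against 126 and 164 with DMSO in WM2664, and 202 with A-485 against 278 and 326 with DMSO in A375. KIFC1 thus lay below both DMSO arrays in every line with A-485. KIFC1 fell at least 2.77-fold to the floor in SKMEL5 (adjusted p = 0.0221), and its differences of -0.76 ± 0.39 in WM2664 and -0.58 ± 0.39 in A375 were not called (adjusted p = 0.196 and 0.418). KIF18B, which shortens astral microtubules, read 105 with A-485 against 324 and 323 with DMSO in SKMEL5, 346 with A-485 against 565 and 566 with DMSO in WM2664, and 869 with A-485 against 869 and 912 with DMSO in A375. It fell 3.07-fold and 1.64-fold in SKMEL5 and WM2664 (adjusted p = 1.11e-06 and 7.62e-05). The other 6 stood between 16.9% of DMSO (KIF15, a spindle motor) and 38.4% (KIF11, the motor that separates spindle poles) in SKMEL5, and KIF14, a cytokinesis motor, was the kinesin that rose in A375 (0.48 ± 0.13, adjusted p = 0.045).

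The 3 spindle assembly genes fell in SKMEL5 at 24 h, and DLGAP5 alone was called in WM2664. TPX2, which activates Aurora A on spindle microtubules, read 226 with A-485 against 1061 and 1261 with DMSO in SKMEL5, 843 with A-485 against 1355 and 983 with DMSO in WM2664, and 1930.3 with A-485 against 2079 and 2152 with DMSO in A375. For TPX2, A-485 lay below both DMSO arrays in every line. TPX2 fell 5.13-fold in SKMEL5 (adjusted p = 8.44e-05), and in WM2664 its difference was -0.45 ± 0.19 with DMSO arrays far apart (adjusted p = 0.11). DLGAP5, a microtubule-stabilising spindle protein, read 213 with A-485 against 733 and 707 with DMSO in SKMEL5, 1181 with A-485 against 1503 and 1449.7 with DMSO in WM2664, and 1167 with A-485 against 1028 and 1039.6 with DMSO in A375. With A-485 DLGAP5 lay below both DMSO arrays in SKMEL5 and WM2664, and above both DMSO arrays in A375. DLGAP5 fell in SKMEL5 (-1.75 ± 0.06, adjusted p = 1.11e-06) and in WM2664 (-0.32 ± 0.06, adjusted p = 0.00425). ASPM, a spindle pole protein, read 166 with A-485 against 559 and 608 with DMSO in SKMEL5, 1710.0 with A-485 against 2163 and 2151 with DMSO in WM2664, and 2234 with A-485 against 1467 and 1444 with DMSO in A375. ASPM thus lay below both DMSO arrays in SKMEL5 and WM2664, and above both DMSO arrays in A375 with A-485. ASPM fell in SKMEL5 and rose in A375 (-1.82 ± 0.16 and 0.62 ± 0.16, adjusted p = 0.000131 and 0.0351).

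Among the 6 genes of condensin and topoisomerase, which compact and untangle chromosomes, 5 fell in SKMEL5 at 24 h and 4 in WM2664, and 2 rose in A375. NCAPH, the bridging subunit of condensin I, read 32 with A-485 against 257 and 212 with DMSO in SKMEL5, 240.0 with A-485 against 476 and 469.9 with DMSO in WM2664, and 509 with A-485 against 485.4 and 501 with DMSO in A375. For NCAPH, A-485 lay below both DMSO arrays in SKMEL5 and WM2664, and above both DMSO arrays in A375. NCAPH fell at least 7.31-fold to the floor in SKMEL5 (adjusted p = 2.01e-06) and 1.97-fold in WM2664 (limma, adjusted p = 0.000472). NCAPG, another condensin I subunit, read 116 with A-485 against 738 and 757 with DMSO in SKMEL5, 535 with A-485 against 794 and 784 with DMSO in WM2664, and 1588 with A-485 against 1149 and 1145 with DMSO in A375. It fell in SKMEL5 and WM2664 and rose in A375, at -2.69 ± 0.05, -0.56 ± 0.05 and 0.47 ± 0.05 (adjusted p = 1.6e-07, 0.000246 and 0.00104). TOP2A, the topoisomerase that separates sister DNA, read 225 with A-485 against 1477 and 1546 with DMSO in SKMEL5, 1771 with A-485 against 2419.8 and 2360.3 with DMSO in WM2664, and 2849.6 with A-485 against 2758 and 2687 with DMSO in A375. With A-485 TOP2A lay below both DMSO arrays in SKMEL5 and WM2664, and above both DMSO arrays in A375. TOP2As falls were 6.72-fold in SKMEL5 and 1.35-fold in WM2664 (limma, adjusted p = 3.3e-07 and 0.0022). SMC2 and SMC4, the ATPase subunits of both condensins, fell less far in SKMEL5, to 52.8% and 41.9% of DMSO. NCAPD2, a further condensin I subunit, was the 1 member called in none of the 6 line and time comparisons, at -0.58 ± 0.21 in SKMEL5, -0.42 ± 0.21 in WM2664 and 0.11 ± 0.21 in A375 at 24 h (adjusted p = 0.0694, 0.188 and 0.907).

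The 3 genes that hold and release sister chromatids fell in both SKMEL5 and WM2664 at 24 h. ESPL1, or separase, the protease that cuts cohesin at anaphase, read 56.5 with A-485 against 337 and 276 with DMSO in SKMEL5, 190.5 with A-485 against 452 and 436 with DMSO in WM2664, and 758 with A-485 against 775 and 764 with DMSO in A375. It fell 5.40-fold in SKMEL5 and 2.33-fold in WM2664 (limma, adjusted p = 5.93e-06 and 0.000216), and in A375 the array with A-485 lay just below both DMSO arrays (difference -0.02 ± 0.11, adjusted p = 1). CDCA5, or sororin, which protects cohesin, read 85.6 with A-485 against 419 and 376 with DMSO in SKMEL5, 276 with A-485 against 402 and 431 with DMSO in WM2664, and 1066 with A-485 against 1004 and 1040.1 with DMSO in A375. CDCA5 thus lay below both DMSO arrays in SKMEL5 and WM2664, and above both DMSO arrays in A375 with A-485. CDCA5 fell in SKMEL5 (-2.21 ± 0.07, adjusted p = 1.29e-06) and WM2664 (-0.59 ± 0.07, adjusted p = 0.000875). PTTG1, or securin, the inhibitor of separase, read 2476 with A-485 against 4826 and 4501 with DMSO in SKMEL5, 4317 with A-485 against 6216 and 6196 with DMSO in WM2664, and 5404 with A-485 against 4768 and 4903 with DMSO in A375. For PTTG1, A-485 lay below both DMSO arrays in SKMEL5 and WM2664, and above both DMSO arrays in A375. PTTG1 fell by 1.88-fold in SKMEL5 and 1.44-fold in WM2664 (limma, adjusted p = 2.36e-05 and 0.000421). Of the 3 cytokinesis genes, all fell in SKMEL5 and 2 in WM2664. ANLN, anillin of the contractile ring, read 365 with A-485 against 1198 and 1463 with DMSO in SKMEL5, 1618 with A-485 against 2334 and 2495 with DMSO in WM2664, and 2510.4 with A-485 against 2734 and 2781 with DMSO in A375. PRC1, which bundles midzone microtubules, read 473 with A-485 against 1435 and 1412 with DMSO in SKMEL5, 2058 with A-485 against 2647 and 2334 with DMSO in WM2664, and 3206 with A-485 against 2944 and 2942 with DMSO in A375. The A-485 arrays of both genes lay below the DMSO pair in SKMEL5 and WM2664, with adjusted p = 2.53e-05 and 4.51e-06 in SKMEL5 and 0.00731 and 0.0207 in WM2664. ECT2, the exchange factor that activates RhoA at the cleavage site, read 463 with A-485 against 757 and 837 with DMSO in SKMEL5, 977 with A-485 against 1067 and 1207 with DMSO in WM2664, and 1297 with A-485 against 1262 and 1361 with DMSO in A375. With A-485 ECT2 lay below both DMSO arrays in SKMEL5 and WM2664, and between the DMSO arrays in A375. ECT2 fell in SKMEL5 (-0.78 ± 0.11, adjusted p = 0.00124) and missed the threshold in WM2664 (-0.22 ± 0.11, adjusted p = 0.185).

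The 24 h responses differed between the lines by tests of the difference itself. A375's response minus the mean response of SKMEL5 and WM2664 was called higher for 53 of 58 genes, with a median of 1.37, where 12.2% of all genes were called higher and 12% lower. All 58 genes had their highest response in A375. AURKB had 2.25 ± 0.23 (adjusted p = 0.000495), CDK1 2.23 ± 0.07 (1.99e-06), HJURP 2.14 ± 0.09 (1.03e-05) and NCAPG 2.09 ± 0.07 (2.12e-06). The 5 genes not called were KIFC1, NCAPD2, SPC24, PLK1 and INCENP. This count was 50 without the 3 arrays with transcripts of another line, and 19 without scaling between arrays, where the median was 1.16. The response of SKMEL5 minus that of WM2664 was called lower for 51 of 58 genes, with a median of -1.35, where 7.29% of all genes were called lower and 7.73% higher. HJURP, at -3.48 ± 0.11, CDK1, at -2.76 ± 0.08, and AURKB, at -2.66 ± 0.27, had the widest gaps (adjusted p = 3.58e-06, 2.61e-06 and 0.000768). Of the 7 genes not called, INCENP and PLK1 had positive differences of 0.20 ± 0.51 and 0.48 ± 0.49, both on dim probe sets. CENPF had -0.45 ± 0.21 (limma, adjusted p = 0.238). PLK1, KIFC1 and CENPI, also among the 7, were at the floor with A-485 in SKMEL5, so their differences between these lines are only upper bounds. Over the 58 genes, the 24 h differences of pairs of lines, which share no arrays, correlated at a Pearson r of 0.228 for SKMEL5 with WM2664, 0.355 for SKMEL5 with A375 and 0.317 for WM2664 with A375. The Spearman rho was 0.267, 0.351 and 0.334 for the same pairs. These describe genes, which are not independent replicates, and the pairs with A375 were no lower than the pair without it.

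**Figure D3:**
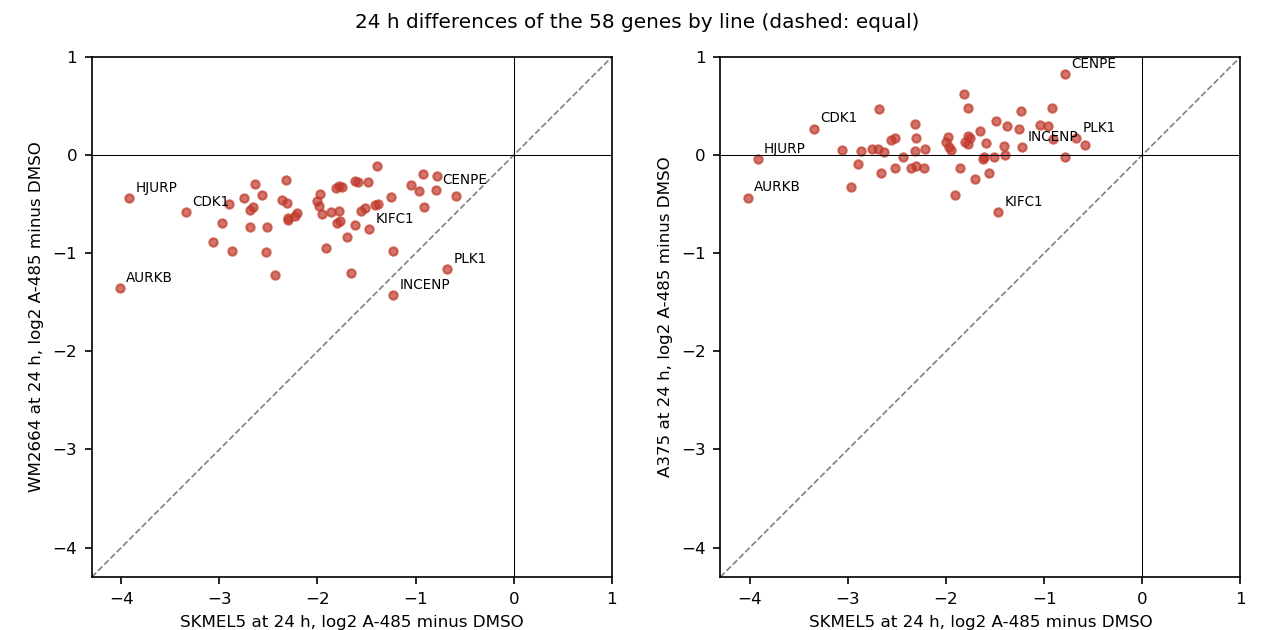
Log2 difference of A-485 minus DMSO at 24 h for the 58 genes, WM2664 against SKMEL5 on the left and A375 against SKMEL5 on the right, 1 point per gene, with the dashed line marking equal differences. In the left panel 56 points lie above the line, and in the right panel all 58 do, most of them close to 0 on the vertical axis.

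The mean over the 3 lines at 24 h was called lower for 54 of 58 genes, with a median of -0.81, where 20.5% of all genes were called lower and 26% higher. This mean rests on SKMEL5: without its A-485 array, 26 were called, with a median of -0.23, and CDC25C, NDC80 and ASPM had positive means of 0.04, 0.03 and 0.14. In a fit that gave all lines 1 shared treatment effect, in which the differences between lines add to the residual spread, 1 gene was called. Lower calls in all 3 lines came for CDCA8, CDC20 and KIF20A, 3 of 58 genes, where 2.07% of all genes had such calls.

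After 6 h the calls in SKMEL5 and WM2664 were mostly in the other direction, and many of the genes were not called. In SKMEL5, 29 of 58 genes rose, 50 had a positive difference and the median was 0.29, where 12.5% of all genes rose and 9.4% fell, and in WM2664, 22 rose, 2 fell and 42 had a positive difference, with a median of 0.25, where 14.9% rose and 10.8% fell. In A375, 2 rose and 1 fell, with a median of 0.04, where 5.88% rose and 6.89% fell. The A-485 array lay above both DMSO arrays for 45 genes in SKMEL5, where 41.3% of all genes did, for 42 in WM2664 and 26 in A375, where 41.7% of all genes did in each line. The genes that rose in both SKMEL5 and WM2664 were 15, of the 29 in SKMEL5 and the 22 in WM2664, where 8.18% of all genes rose in both. Over all genes tested, 1756 rose in SKMEL5, 2094 in WM2664 and 1148 in both. Brighter genes in general had medians of 0.06 in SKMEL5 and 0.08 in WM2664, and the members lay 0.23 and 0.18 above those. Without scaling the members lay 0.23 and 0.15 above the brighter genes, with 5 and 15 called higher. The count in SKMEL5 was 16 without DMSO replicate 1 of 6 h and 13 without replicate 2, and that in WM2664 was 13 without either. Without the 3 arrays with transcripts of another line, 22 genes rose in SKMEL5 and 11 in WM2664, and 0 were called in A375. In A375, 0 were called without DMSO replicate 2 of 6 h and 5 without either SKMEL5 DMSO array of 24 h, and 10 of the 58 had an unadjusted p under 0.05 with limma on all arrays. The share of all genes with such an unadjusted p was not counted.

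Of the 6 entry regulators, 5 rose in SKMEL5 at 6 h and 3 in WM2664. CDK1 read 1951 with A-485 against 1404 and 1368 with DMSO in SKMEL5, 2890.3 with A-485 against 2380.4 and 2370.2 with DMSO in WM2664, and 2618 with A-485 against 2214 and 2144 with DMSO in A375. CDK1 thus lay above both DMSO arrays in every line with A-485, and the gene rose by 0.49 ± 0.05 in SKMEL5, 0.28 ± 0.05 in WM2664 and 0.27 ± 0.05 in A375 (limma, adjusted p = 0.000926, 0.00833 and 0.0202). CCNA2 read 992 with A-485 against 717 and 714 with DMSO in SKMEL5, 1104 with A-485 against 902 and 888 with DMSO in WM2664, and 1931 with A-485 against 1769 and 1774 with DMSO in A375. For CCNA2, A-485 lay above both DMSO arrays in every line, and the gene rose by 0.47 ± 0.12 in SKMEL5 (adjusted p = 0.025). FOXM1 read 524 with A-485 against 470.4 and 551 with DMSO in SKMEL5, 513 with A-485 against 529 and 568 with DMSO in WM2664, and 947 with A-485 against 912 and 1074 with DMSO in A375. With A-485 FOXM1 lay between the DMSO arrays in SKMEL5 and A375, and below both DMSO arrays in WM2664, and was not called. CCNB1 rose in SKMEL5 (0.29 ± 0.07) and WM2664 (0.43 ± 0.07), as did CCNB2 (0.59 ± 0.08 and 0.47 ± 0.08), with adjusted p = 0.0187, 0.00283, 0.00264 and 0.00534. Of the genes of the mitotic kinase role, 3 rose in SKMEL5 and 1, NEK2, in WM2664 (0.40 ± 0.12, adjusted p = 0.0439). AURKA read 2103 with A-485 against 1793 and 1702 with DMSO in SKMEL5, 1708 with A-485 against 1484 and 1542 with DMSO in WM2664, and 1892 with A-485 against 2122 and 2123 with DMSO in A375. AURKA thus lay above both DMSO arrays in SKMEL5 and WM2664, and below both DMSO arrays in A375 with A-485, and the gene rose by 0.27 ± 0.06 in SKMEL5 (adjusted p = 0.0211). MELK read 1879.9 with A-485 against 1559.5 and 1613 with DMSO in SKMEL5, 2917 with A-485 against 2680.3 and 2552 with DMSO in WM2664, and 2626 with A-485 against 2508 and 2494 with DMSO in A375. For MELK, A-485 lay above both DMSO arrays in every line, and the gene rose by 0.25 ± 0.05 in SKMEL5 (adjusted p = 0.0132). PLK4 read 447 with A-485 against 336 and 383 with DMSO in SKMEL5, 506 with A-485 against 442 and 461 with DMSO in WM2664, and 541 with A-485 against 502 and 468 with DMSO in A375. With A-485 PLK4 lay above both DMSO arrays in every line, and the gene rose by 0.32 ± 0.09 in SKMEL5 (adjusted p = 0.0392).

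In the passenger complex 1 of 4 genes was called at 6 h, CDCA8 in SKMEL5. AURKB read 524 with A-485 against 525 and 574 with DMSO in SKMEL5, 466 with A-485 against 558 and 630.1 with DMSO in WM2664, and 899 with A-485 against 906 and 969 with DMSO in A375. AURKB thus lay below both DMSO arrays in every line with A-485, and was not called. CDCA8 read 640.1 with A-485 against 512 and 524 with DMSO in SKMEL5, 615 with A-485 against 554 and 564 with DMSO in WM2664, and 1030.4 with A-485 against 1132 and 1115 with DMSO in A375. For CDCA8, A-485 lay above both DMSO arrays in SKMEL5 and WM2664, and below both DMSO arrays in A375, and the gene rose by 0.31 ± 0.08 in SKMEL5 (adjusted p = 0.0259). INCENP read 64.6 with A-485 against 106 and 89.1 with DMSO in SKMEL5, 75.8 with A-485 against 78.6 and 132 with DMSO in WM2664, and 214 with A-485 against 157 and 157 with DMSO in A375. With A-485 INCENP lay below both DMSO arrays in SKMEL5 and WM2664, and above both DMSO arrays in A375, and was not called. In the checkpoint role, 2 of 6 genes rose in SKMEL5 and 3 in WM2664. BUB1B read 1256 with A-485 against 1231 and 1294 with DMSO in SKMEL5, 1438 with A-485 against 1489 and 1419 with DMSO in WM2664, and 1542 with A-485 against 1648 and 1699 with DMSO in A375. BUB1B thus lay between the DMSO arrays in SKMEL5 and WM2664, and below both DMSO arrays in A375 with A-485, and was not called. CDC20 read 854 with A-485 against 817 and 775 with DMSO in SKMEL5, 937 with A-485 against 999 and 1081 with DMSO in WM2664, and 3321 with A-485 against 3679 and 3731 with DMSO in A375. For CDC20, A-485 lay above both DMSO arrays in SKMEL5, and below both DMSO arrays in WM2664 and A375, and was not called. UBE2C read 2944 with A-485 against 1785 and 1741 with DMSO in SKMEL5, 2775 with A-485 against 1695 and 2068 with DMSO in WM2664, and 3302 with A-485 against 3642 and 3694 with DMSO in A375. With A-485 UBE2C lay above both DMSO arrays in SKMEL5 and WM2664, and below both DMSO arrays in A375, and the gene rose by 0.74 ± 0.16 in SKMEL5 and 0.57 ± 0.16 in WM2664 (limma, adjusted p = 0.0163 and 0.0397). TTK, whose kinase activity starts checkpoint signalling, rose in SKMEL5 (0.97 ± 0.11, adjusted p = 0.0012), and BUB1 and MAD2L1 rose in WM2664 (0.50 ± 0.10 and 0.44 ± 0.08, adjusted p = 0.00946 and 0.00638). The MAD2L1 probe set is marked as shared between transcripts or genes. Other bright probe sets of MAD2L1 gave differences of -0.00213 and 0.179 in WM2664 at 6 h.

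In the centromere role, 5 of 12 genes rose in SKMEL5 at 6 h, and 4 rose and 1 fell in WM2664. HJURP read 888 with A-485 against 766 and 729 with DMSO in SKMEL5, 1299 with A-485 against 1064 and 1079 with DMSO in WM2664, and 923 with A-485 against 978 and 978 with DMSO in A375. HJURP thus lay above both DMSO arrays in SKMEL5 and WM2664, and below both DMSO arrays in A375 with A-485, and the gene rose by 0.28 ± 0.08 in WM2664 (limma, adjusted p = 0.0352). CENPA read 685 with A-485 against 547 and 553 with DMSO in SKMEL5, 682 with A-485 against 568 and 583 with DMSO in WM2664, and 515 with A-485 against 522 and 514 with DMSO in A375. For CENPA, A-485 lay above both DMSO arrays in SKMEL5 and WM2664, and between the DMSO arrays in A375, and the gene rose by 0.32 ± 0.06 in SKMEL5 and 0.24 ± 0.06 in WM2664 (limma, adjusted p = 0.0119 and 0.0285). CENPM read 434 with A-485 against 709 and 589 with DMSO in SKMEL5, 294 with A-485 against 357 and 377 with DMSO in WM2664, and 612 with A-485 against 486 and 619 with DMSO in A375. With A-485 CENPM lay below both DMSO arrays in SKMEL5 and WM2664, and between the DMSO arrays in A375, and was not called. NDC80 and SPC25 rose in both lines, by 0.47 ± 0.07 and 0.45 ± 0.13 in SKMEL5 and 0.55 ± 0.07 and 0.53 ± 0.13 in WM2664. CENPE had the largest difference of the 58 genes in SKMEL5, 1.14 ± 0.33 (adjusted p = 0.0459), with 423 with A-485 against 236 and 157 with DMSO in SKMEL5. The genes that fell in WM2664 were CENPN and, from the cohesion role, PTTG1. CENPN read 1553 with A-485 against 1579 and 1548 with DMSO in SKMEL5, 874 with A-485 against 1124 and 1134 with DMSO in WM2664, and 2865 with A-485 against 2756 and 2819 with DMSO in A375. CENPN thus lay between the DMSO arrays in SKMEL5, and below both DMSO arrays in WM2664, and above both DMSO arrays in A375 with A-485. PTTG1 read 5044 with A-485 against 5641 and 5827 with DMSO in SKMEL5, 5316 with A-485 against 5930.3 and 6153 with DMSO in WM2664, and 4771 with A-485 against 4679 and 4768 with DMSO in A375. For PTTG1, A-485 lay below both DMSO arrays in SKMEL5 and WM2664, and above both DMSO arrays in A375. In WM2664 CENPN had -0.37 ± 0.05 and PTTG1 -0.18 ± 0.06 (adjusted p = 0.00113 and 0.0484), and without scaling between arrays these 2 differences were 0.10 and 0.07, where the median of all genes was 0.39, so both stayed below the other genes. Other bright probe sets of CENPN gave -0.00973 and 0.132 in WM2664 at 6 h, so its fall there rests on the brightest.

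Of the kinesins, 4 rose in SKMEL5 at 6 h and 5 in WM2664. KIF15 rose in SKMEL5 (1.01 ± 0.07, adjusted p = 0.000137) and WM2664 (0.34 ± 0.07, adjusted p = 0.0133), and KIF2C, a kinesin that takes apart microtubules, rose in both (0.43 ± 0.12 and 0.68 ± 0.12, adjusted p = 0.0398 and 0.00495). KIF23 read 775 with A-485 against 776 and 769.9 with DMSO in SKMEL5, 698 with A-485 against 738 and 697 with DMSO in WM2664, and 1074 with A-485 against 1261 and 1333 with DMSO in A375. With A-485 KIF23 lay between the DMSO arrays in SKMEL5 and WM2664, and below both DMSO arrays in A375, and was not called. KIFC1 read 161 with A-485 against 138 and 125 with DMSO in SKMEL5, 119 with A-485 against 180.0 and 152 with DMSO in WM2664, and 240.3 with A-485 against 267 and 166 with DMSO in A375. KIFC1 thus lay above both DMSO arrays in SKMEL5, and below both DMSO arrays in WM2664, and between the DMSO arrays in A375 with A-485, and was not called. KIF20A read 1562 with A-485 against 1463 and 1531 with DMSO in SKMEL5, 1473 with A-485 against 1449 and 1451 with DMSO in WM2664, and 2301 with A-485 against 2309 and 2273 with DMSO in A375. For KIF20A, A-485 lay above both DMSO arrays in SKMEL5 and WM2664, and between the DMSO arrays in A375, and was not called. KIF18B was called in opposite directions in WM2664 and A375. KIF18B read 463 with A-485 against 430.0 and 443 with DMSO in SKMEL5, 583 with A-485 against 524 and 507 with DMSO in WM2664, and 794 with A-485 against 919.6 and 967 with DMSO in A375. With A-485 KIF18B lay above both DMSO arrays in SKMEL5 and WM2664, and below both DMSO arrays in A375. Its differences were 0.18 ± 0.05 in WM2664 and -0.25 ± 0.05 in A375 (limma, adjusted p = 0.0441 and 0.0217). Of the spindle assembly genes, 2 rose in SKMEL5 and 1 in WM2664. TPX2 read 1536 with A-485 against 1246 and 1346 with DMSO in SKMEL5, 1535 with A-485 against 1193 and 1210.2 with DMSO in WM2664, and 1832 with A-485 against 1922 and 1704 with DMSO in A375. TPX2 thus lay above both DMSO arrays in SKMEL5 and WM2664, and between the DMSO arrays in A375 with A-485, and was not called. DLGAP5 read 1159 with A-485 against 979 and 981 with DMSO in SKMEL5, 1839 with A-485 against 1442 and 1449 with DMSO in WM2664, and 1033 with A-485 against 1062 and 982 with DMSO in A375. For DLGAP5, A-485 lay above both DMSO arrays in SKMEL5 and WM2664, and between the DMSO arrays in A375, and the gene rose by 0.24 ± 0.06 in SKMEL5 and 0.35 ± 0.06 in WM2664 (limma, adjusted p = 0.0205 and 0.00379). ASPM read 804 with A-485 against 531 and 459 with DMSO in SKMEL5, 2347 with A-485 against 1991 and 1859.6 with DMSO in WM2664, and 1458 with A-485 against 1442 and 1096 with DMSO in A375. With A-485 ASPM lay above both DMSO arrays in every line, and the gene rose by 0.70 ± 0.16 in SKMEL5 (adjusted p = 0.0175).

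Of the 6 condensin and topoisomerase genes, 4 rose in SKMEL5 at 6 h and 3 in WM2664. TOP2A read 2534 with A-485 against 1386 and 1408 with DMSO in SKMEL5, 3206 with A-485 against 2200.1 and 2384 with DMSO in WM2664, and 2528 with A-485 against 2641 and 2476 with DMSO in A375. TOP2A thus lay above both DMSO arrays in SKMEL5 and WM2664, and between the DMSO arrays in A375 with A-485, and the gene rose by 0.86 ± 0.07 in SKMEL5 and 0.49 ± 0.07 in WM2664 (limma, adjusted p = 0.000177 and 0.00162). NCAPG read 1371 with A-485 against 1143 and 1058 with DMSO in SKMEL5, 1083 with A-485 against 926 and 942 with DMSO in WM2664, and 1483 with A-485 against 1284 and 1279 with DMSO in A375. For NCAPG, A-485 lay above both DMSO arrays in every line, and the gene rose by 0.32 ± 0.05 in SKMEL5, 0.21 ± 0.05 in WM2664 and 0.21 ± 0.05 in A375 (limma, adjusted p = 0.0054, 0.0233 and 0.0421). NCAPH read 411 with A-485 against 398 and 373 with DMSO in SKMEL5, 543 with A-485 against 505 and 518 with DMSO in WM2664, and 578 with A-485 against 567 and 531 with DMSO in A375. With A-485 NCAPH lay above both DMSO arrays in every line, and was not called. Neither of the cohesion genes ESPL1 and CDCA5 was called at 6 h. ESPL1 read 463 with A-485 against 431 and 464 with DMSO in SKMEL5, 429.7 with A-485 against 475 and 481 with DMSO in WM2664, and 713 with A-485 against 662 and 717 with DMSO in A375. ESPL1 thus lay between the DMSO arrays in SKMEL5 and A375, and below both DMSO arrays in WM2664 with A-485. CDCA5 read 623 with A-485 against 565 and 557 with DMSO in SKMEL5, 509 with A-485 against 464 and 477 with DMSO in WM2664, and 1276 with A-485 against 1054 and 1082 with DMSO in A375. For CDCA5, A-485 lay above both DMSO arrays in every line. All 3 cytokinesis genes rose in SKMEL5, and PRC1 and ECT2 in WM2664. ANLN read 2377 with A-485 against 1718 and 1757 with DMSO in SKMEL5, 3169.6 with A-485 against 2564 and 2371 with DMSO in WM2664, and 2641 with A-485 against 3056 and 2871 with DMSO in A375. With A-485 ANLN lay above both DMSO arrays in SKMEL5 and WM2664, and below both DMSO arrays in A375, and the gene rose by 0.45 ± 0.11 in SKMEL5 (adjusted p = 0.0287). PRC1 read 1823 with A-485 against 1536 and 1530.3 with DMSO in SKMEL5, 2866 with A-485 against 2114 and 2090.3 with DMSO in WM2664, and 2822 with A-485 against 2647 and 2639 with DMSO in A375. PRC1 thus lay above both DMSO arrays in every line with A-485, and the gene rose by 0.25 ± 0.07 in SKMEL5 and 0.45 ± 0.07 in WM2664 (limma, adjusted p = 0.0402 and 0.00296). ECT2 read 1317 with A-485 against 938 and 927 with DMSO in SKMEL5, 1651 with A-485 against 1196 and 1204 with DMSO in WM2664, and 1092 with A-485 against 1395 and 1222 with DMSO in A375. For ECT2, A-485 lay above both DMSO arrays in SKMEL5 and WM2664, and below both DMSO arrays in A375, and the gene rose by 0.50 ± 0.11 in SKMEL5 and 0.46 ± 0.11 in WM2664 (limma, adjusted p = 0.0155 and 0.0187).

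The 6 h responses of the lines differed for fewer genes. Set against the mean of the other 2 lines, A375 was called lower for 11 genes and higher for CENPN, where 6.2% of all genes were lower and 5.57% higher, with TOP2A at -0.69 ± 0.08 and ECT2 at -0.74 ± 0.13 (adjusted p = 0.00186 and 0.0115). SKMEL5 minus WM2664 was called higher for KIF15 and CENPN alone, 2 of 58 genes, where 2.83% of all genes were and 2.63% were lower, at 0.68 ± 0.10 and 0.36 ± 0.07 (adjusted p = 0.0115 and 0.0234). The CENPN calls at 6 h rest on its brightest probe set, whose fall in WM2664 its other bright probe sets did not share. Over the 58 genes the 6 h differences of SKMEL5 and WM2664 correlated at a Pearson r of 0.718 and a Spearman rho of 0.729, again as a description across genes. The mean over lines at 6 h was called higher for 34 genes and lower for 2, CENPN and PTTG1, where 22% and 15.2% of all genes were. That count was 16 without the SKMEL5 A-485 array of 6 h, 19 without the WM2664 one and 22 without the 3 arrays with transcripts of another line.

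The change between the times was tested as the 24 h response minus the 6 h response. It was called lower for 54 of 58 genes in SKMEL5, with a median of -2.11, where 7.24% of all genes were lower and 6.56% higher, and for 43 in WM2664, with a median of -0.83, where 6.36% were lower and 4.99% higher. In A375 limma called 0 genes, with a median of 0.04, against a share of all genes of 1.94% higher and 1.88% lower. There 6 of 58 had an unadjusted p under 0.05, a share that was not counted over all genes. HJURP, AURKB and CDK1 led in SKMEL5, at -4.17 ± 0.11, -3.95 ± 0.27 and -3.84 ± 0.08 (adjusted p = 2.42e-06, 0.000107 and 1.4e-06), and KIF2C and CENPA led the called genes in WM2664, at -1.30 ± 0.17 and -1.13 ± 0.09 (adjusted p = 0.00369 and 0.000631). Of all genes tested, 1756 rose at 6 h in SKMEL5, and 134 of these fell at 24 h, 0.954% of the genes tested. Of the 29 members that rose there, 28 fell at 24 h. The exception was CENPE. In WM2664, 2094 of all genes tested rose at 6 h, and 97 of these fell at 24 h, 0.691% of the genes tested. Of the 22 members that rose there, 19 fell at 24 h, and UBE2C, SPC25 and ECT2 were the exceptions. The WM2664 count of 43 was 26 without the 3 arrays with transcripts of another line, and 0 without scaling. The mean over lines was called lower for 52 genes, with a median of -0.95, where 11% of all genes were lower and 9.56% higher, and 27 were called without either SKMEL5 A-485 array.

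The DMSO cultures themselves changed between the times in SKMEL5. There 27 of 58 genes were lower at 24 h than at 6 h, with a median of -0.34, where 4.17% of all genes were lower and 4.32% higher. CENPM and CENPI had -0.94 ± 0.19 and -0.91 ± 0.13, and AURKA had -0.64 ± 0.05 (adjusted p = 0.0273, 0.0105 and 0.00171). The count was 11 without the 3 arrays with transcripts of another line, none of which is a SKMEL5 array, and 0 when the SKMEL5 arrays were fitted alone or without scaling. In WM2664 1 gene (NCAPG) was lower, where 0.99% of all genes were and 1.12% were higher, and in A375 1 gene (CENPN), where 1.26% were and 1.48% were higher. Between lines, DMSO levels in A375 were above the mean of the other lines for 47 genes and below it for 5, with a median of 0.57, where 37.9% and 33.1% of all genes were. CDC20 had the widest gap, with 3705 at 6 h and 3913 at 24 h in A375, against 796 and 585 in SKMEL5 and 1039 and 1163 in WM2664 (geometric means of each DMSO pair, difference 2.14 ± 0.04, adjusted p = 5.24e-09). SPC24 (1.97 ± 0.10) and PLK1 (1.70 ± 0.17) followed, and SPC25, CENPI, BIRC5, PTTG1 and DLGAP5 were lower in A375, led by SPC25 (-0.71 ± 0.07, adjusted p = 2.75e-05).

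Other genes of mitosis were read from lists by function that hold none of the 58. Of 88 such genes, 83 were tested, and at 24 h 59 fell and 5 rose in SKMEL5, 40 fell and 3 rose in WM2664, and 3 fell and 8 rose in A375, with medians of -1.12, -0.32 and 0.14. Of all genes tested, 15.2% fell and 20.2% rose in SKMEL5, 14.6% and 17.7% in WM2664, and 8.4% and 9.08% in A375. The 8 of 83 that rose in A375 are near that share. Among 20 further kinetochore genes, 16 fell in SKMEL5 and 13 in WM2664, such as OIP5, which helps to load the centromeric histone (-2.19 ± 0.07 and -0.93 ± 0.07). Among 17 spindle and midbody genes, 15 fell in SKMEL5 and 9 in WM2664, such as TACC3, a spindle microtubule protein (-2.63 ± 0.17 and -0.89 ± 0.17), and FAM83D, which positions the spindle (-2.31 ± 0.05 and -1.13 ± 0.05). All 15 genes of other steps around the entry into mitosis fell in SKMEL5 and 12 in WM2664, among them the CDK1-inhibiting kinases WEE1 (-1.30 ± 0.06 and -0.73 ± 0.06) and PKMYT1 (-1.56 ± 0.05 and -0.97 ± 0.05), and PKMYT1 fell in A375 too (-0.39 ± 0.05, adjusted p = 0.00236). The 17 other checkpoint and anaphase-promoting complex genes, mostly core subunits, had medians of 0.11 in SKMEL5 and 0.00 in WM2664, with 6 and 4 lower and 3 and 2 higher. The higher calls were no more frequent than among all genes. CDC27, a core subunit, rose in all 3 lines (0.33 ± 0.04, 0.31 ± 0.04 and 0.25 ± 0.04). The 14 genes of cohesin and condensin II had 7 lower and 1 higher in SKMEL5, where the cohesin acetyltransferase ESCO2 fell (-3.35 ± 0.22), and 2 lower in WM2664.

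Genes of DNA replication, the step before mitosis in the cycle, were also lower in SKMEL5 and WM2664 at 24 h. Of 42 tested, 40 fell in SKMEL5, 24 fell and 2 rose in WM2664, and 1 fell and 8 rose in A375 at 24 h, with medians of -1.76, -0.39 and 0.06. Of all genes tested, 15.2%, 14.6% and 8.4% fell in SKMEL5, WM2664 and A375, and 20.2%, 17.7% and 9.08% rose. At 6 h the medians of the replication genes were 0.09 in SKMEL5, 0.18 in WM2664 and 0.21 in A375. There 7, 9 and 9 of them were higher, where 12.5%, 14.9% and 5.88% of all genes were. Of 12 housekeeping genes tested the median was -0.01 in SKMEL5 at 24 h, where the tubulin TUBB fell (-1.29 ± 0.06, adjusted p = 8.36e-06), and -0.02 in WM2664 and 0.02 in A375.

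**Figure D4:**
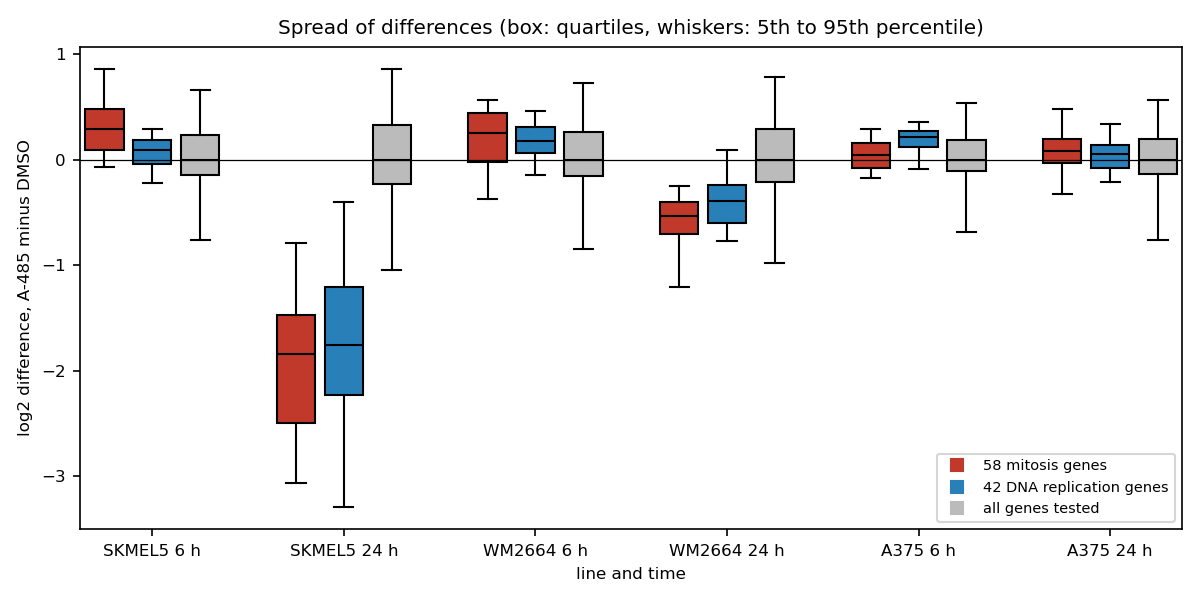
Spread of the log2 differences of A-485 minus DMSO for the 58 mitosis genes, 42 DNA replication genes and all 14042 genes tested, per line and time, as quartile boxes with whiskers from the 5th to the 95th percentile. Mitosis and replication boxes lie wholly below 0 in SKMEL5 and WM2664 at 24 h, and both span 0 in A375 at 24 h.

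Of the regulators known for these genes, CDKN1A, the p21 inhibitor of cyclin-dependent kinases, rose in SKMEL5 and WM2664 at both times and not in A375. At 24 h it read 2271 with A-485 against 881 and 853 with DMSO in SKMEL5, 2968 with A-485 against 1052 and 1004 with DMSO in WM2664, and 1074 with A-485 against 1212 and 1126 with DMSO in A375. The differences were 1.39 ± 0.06, 1.53 ± 0.06 and -0.12 ± 0.06 at 24 h (adjusted p = 5.81e-06, 5.77e-06 and 0.275), and 1.30 ± 0.06, 1.50 ± 0.06 and -0.26 ± 0.06 at 6 h, where the fall in A375 was called (adjusted p = 0.0403). A375 minus the other lines differed for CDKN1A at both times (-1.66 at 6 h and -1.58 at 24 h, adjusted p = 3.67e-05 and 1.71e-05). MYC, a driver of cell growth and entry into the cycle, fell in every line at both times, at -3.40 ± 0.08, -4.12 ± 0.08 and -2.79 ± 0.08 at 6 h and -2.37 ± 0.08, -3.40 ± 0.08 and -1.81 ± 0.08 at 24 h. MYBL2, which encodes B-MYB, read 32 with A-485 against 134 and 107 with DMSO in SKMEL5 at 24 h, 263 with A-485 against 309.5 and 255 with DMSO in WM2664, and 608 with A-485 against 515 and 539 with DMSO in A375. It fell to the floor in SKMEL5, where its difference of -1.90 ± 0.15 is a bound (adjusted p = 7.86e-05), and its differences of -0.10 ± 0.15 in WM2664 and 0.21 ± 0.15 in A375 were not called, nor were those at 6 h. E2F8, a repressor of the E2F family, fell in SKMEL5 (to the floor, where the difference of -2.73 ± 0.10 is a bound) and WM2664 (-0.83 ± 0.10) and rose in A375 (0.65 ± 0.10, adjusted p = 0.00402) at 24 h.

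Of the 58 genes, 21 had more than 1 bright probe set. At 24 h these had the same sign for 21 of 21 genes in SKMEL5, 20 of 21 in WM2664 and 12 of 21 in A375, and at 6 h for 17, 16 and 16 of 21.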

How the data were processed

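The arrays were Affymetrix HG-U133 Plus 2.0, which read each transcript near its 3' end, hybridised from 200 ng of RNA with a 3' IVT Plus kit per the labels' protocols. The deposited tables hold 1 intensity per probe set on a linear scale, background-subtracted in that 19.3% to 22.9% of the values on each array lie below 0. For these deposited intensities the sources used here name neither software nor normalization. Arrays were quantile normalized on the linear scale, set to a floor of 32 and taken to log2. Each gene was read by its brightest probe set, and genes whose mean log2 value reached the 40th percentile were tested, 14042 of 19775. Differences came from 1 limma fit (limma 3.58.1, R 4.3.3) over all 12 groups with 6 residual degrees of freedom, and p-values were adjusted by Benjamini-Hochberg within each comparison over all genes tested. Fits were tested on simulated data. The number of arrays limits the precision. Genes given array by array are the 3 with the largest mean difference in each role and those called against the majority. The members and lists were chosen with earlier results of these data known. Groups were taken from the sample labels. Replicate numbers did not pair samples (correlations of same-numbered deviations -0.035 to 0.058 over 15 pairs of groups). Alternatives covered scaling, floor, filter, probe set choice, arrays left out and the replicate block.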

Additional observations from a re-analysis of the deposited data

Results flagged for a closer look

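The lines responded differently at 24 h by tests of the difference itself. A375 set against the mean of SKMEL5 and WM2664 was called for 53 of the 58 genes at 24 h and for 12 at 6 h. AURKB had a difference of 2.25, CDK1 of 2.23 and HJURP of 2.14 at 24 h. The response of SKMEL5 minus that of WM2664 was called for 51 genes at 24 h and for 2 at 6 h, with HJURP at -3.48, CDK1 at -2.76 and AURKB at -2.66 at 24 h. The response at 24 h minus that at 6 h was called for 54 genes in SKMEL5, 43 in WM2664 and 52 in the mean over lines. Groups of 2 arrays or 1 are too small to look for single outlying arrays.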

How the results depend on the processing

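Each A-485 group is 1 array, so no alternative tests its spread, and dim members at the floor have only bounds. Over all alternatives, 413 counts stayed within 1.5 times the reported one and 45 did not. Of the values for single genes, 13264 kept their side of the threshold, 951 kept the direction and lost the call, and 148 gained it. In 17 the sign changed for a gene called in the reported or the alternative fit. Sign changes of genes called in neither fit were not counted apart and lie among the 13264.

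Leaving out each array in turn gave 13 to 29 genes higher in SKMEL5 at 6 h, 13 to 22 in WM2664 at 6 h, 0 to 5 called in A375 at 6 h, 5 to 12 in A375 at 24 h, 16 to 36 higher in the mean at 6 h, 26 to 57 lower in the mean at 24 h, and 27 to 54 lower in the mean of 24 h minus 6 h. Without scaling between arrays, 5 were higher in SKMEL5 at 6 h, 0 called in A375 at either time, 1 lower in WM2664 at 24 h, 0 lower in WM2664 for 24 h minus 6 h, 19 higher for A375 minus the other lines, 31 lower for SKMEL5 minus WM2664, and 0 lower in SKMEL5 DMSO at 24 h minus 6 h. Scaling to the 75th percentile gave 10 higher in WM2664 at 6 h. A floor of 1 gave 17 in SKMEL5 and 13 in WM2664 higher at 6 h, and 0 and 3 called in A375 at 6 h and 24 h, and a floor of 16 gave 0 and 4 in A375. Without probe sets marked as shared, which leaves 46 members, 19 were higher in SKMEL5 at 6 h, and 1 and 6 were called in A375 at 6 h and 24 h. Fitting the 24 h arrays alone called 7 in A375. Fitting SKMEL5 alone gave 5 higher at 6 h and 0 lower in DMSO at 24 h minus 6 h, and fitting WM2664 alone gave 6 higher at 6 h, 26 lower at 24 h and 12 lower for 24 h minus 6 h. A shared treatment effect over lines gave 14 higher at 6 h and 1 lower at 24 h. Without the 3 DMSO arrays with transcripts of another line, chosen after seeing the data, 11 were higher in WM2664 and 0 called in A375 at 6 h, 22 were higher in the mean at 6 h, 26 were lower in WM2664 for 24 h minus 6 h, and 11 were lower in SKMEL5 DMSO. The cause of these changes was not tested, apart from the smaller number of arrays or members where some were left out.

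With the replicate number as a block, 24 genes were higher in SKMEL5 at 6 h, 16 in WM2664 at 6 h and 29 in the mean at 6 h, 56 were lower in SKMEL5 at 24 h, 42 in WM2664 at 24 h and 56 in the mean at 24 h, and 3 and 8 were called in A375 at 6 h and 24 h.

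Among members called in either fit, signs changed without scaling for CENPN (0.0996) and PTTG1 (0.0720) in WM2664 at 6 h. They also changed for CCNB1 (0.0135), BUB1 (0.00388), CENPN (0.0140) and NDC80 (0.0629) in WM2664 at 24 h. In the mean at 6 h they changed for CENPN (0.125) and PTTG1 (0.0167). That setting moved the median of all genes to 0.394 in WM2664 at 6 h and 0.18 in WM2664 at 24 h. In the mean at 6 h the median moved to 0.235. Each sign-changed value above lies below the median of its comparison. Members called in neither fit are not listed. Without scaling, 9 of the 58 members were positive in WM2664 at 24 h, against 0 with scaling. At 6 h in WM2664, 58 were positive, against 42 with scaling. With the mean of probe sets CENPN had 0.0260 in the mean at 6 h. Without shared probe sets MAD2L1 had -0.00213 in WM2664 at 6 h and CENPN 0.0838 in the mean at 6 h. KIF23 had 0.0740 in WM2664 at 24 h, on a dim probe set. Leaving out each array in turn moved the mean at 6 h between -0.00441 and 0.217 for MAD2L1 and between -0.189 and 0.0150 for CENPN, with the changed sign without the WM2664 A-485 array of 6 h. It moved the mean at 24 h between -0.880 and 0.0411 for CDC25C, -1.29 and 0.0303 for NDC80, and -1.08 and 0.142 for ASPM, with the changed sign without the SKMEL5 A-485 array of 24 h.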
